A study of Mus musculus with 24 samples.

Results

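The genes described here encode 10 enzymes that hydroxylate or crosslink collagen: Lox, Loxl1, Loxl2, Loxl3, Loxl4, P4ha1, P4ha2, P4ha3, Plod1 and Plod2. They were chosen by symbol, as the rows of the count table with those names, and make up 10 of its 21878 genes. RNA was sequenced from hearts of mice 3 weeks after myocardial infarction (MI). All mice had been ovariectomised and all had received AAV9, a virus that carries genes to the heart, so that no group was left intact or without virus. The miR-21 swim group (5 libraries) received AAV9 overexpressing the microRNA miR-21 and trained by swimming before the infarction. The miR-21 control group (6 libraries) received the same vector without swimming. The empty swim group (6 libraries) received the empty vector and trained by swimming, and the empty control group (6 libraries) received the empty vector without swimming. The sources used here give neither strain nor age, nor the promoter that drives miR-21, nor whether hearts were pooled.

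Collagen chains are modified inside the cell before they fold. Prolyl 4-hydroxylases hydroxylate proline, which keeps the triple helix stable at body temperature, and P4ha1, P4ha2 and P4ha3 are alternative catalytic alpha subunits that pair with the beta subunit P4hb. Lysyl hydroxylases modify lysine, with Plod1 acting mainly on the helix and Plod2 on the telopeptides, the short chain ends where crosslinks form. Outside the cell, lysyl oxidase (Lox) and its relatives Loxl1 to Loxl4 oxidise lysine and hydroxylysine to aldehydes that then form the covalent crosslinks of collagen and elastin. In the infarcted heart these crosslinks are known to stiffen the scar, and activated fibroblasts are the main source of its collagen.

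Sequences are shown for P4ha1, which had the smallest adjusted p of the 10 enzymes in any comparison, and for P4ha2, the other abundant subunit of the same enzyme. The mature strand of mouse miR-21 most often found in cells is miR-21a-5p, and its seed (bases 2 to 8) is in capitals. The labels do not say which strand or which construct was used.
mmu-miR-21a-5p: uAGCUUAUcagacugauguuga
Among the 10 enzymes, the 7-base match to that seed (ATAAGCT) was found in the 3′ untranslated region of P4ha1, on chromosome 10, and in none of the other 9. It is in capitals in the 29 bases that surround it. The match starts at base 1035 of 2230.
P4ha1 site: gctcccttgggATAAGCTtcggggaattt
Of 12969 tested genes with such a region of at least 30 bases, 7.81% hold this 7-base word. A match describes the sequence and does not show that the site is used.

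RefSeq promoters (GRCm38.p6, 250 bases before to 50 after the gene's start) were found for 5 of the 10 enzymes. The 2 promoters below are shown with the core of the hypoxia response element in capitals, ACGTG or GCGTG on either strand, because P4ha1 is a textbook target of hypoxia-inducible factors. P4ha1 lies at chr10:59323046-59323345, on the plus strand, and P4ha2 at chr11:54100674-54100973, on the plus strand.
P4ha1 promoter: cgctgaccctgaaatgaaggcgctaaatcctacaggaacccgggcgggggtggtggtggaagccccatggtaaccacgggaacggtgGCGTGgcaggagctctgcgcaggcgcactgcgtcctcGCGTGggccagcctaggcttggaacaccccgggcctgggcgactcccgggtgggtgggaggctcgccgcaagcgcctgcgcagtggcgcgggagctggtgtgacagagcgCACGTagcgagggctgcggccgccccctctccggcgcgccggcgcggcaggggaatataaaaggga
P4ha2 promoter: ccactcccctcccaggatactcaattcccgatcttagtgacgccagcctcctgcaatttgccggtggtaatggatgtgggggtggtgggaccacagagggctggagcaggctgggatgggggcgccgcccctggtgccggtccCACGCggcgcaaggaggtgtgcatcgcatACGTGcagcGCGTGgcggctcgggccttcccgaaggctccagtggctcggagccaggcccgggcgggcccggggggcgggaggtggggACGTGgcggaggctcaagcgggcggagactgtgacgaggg
The P4ha1 window holds 3 matches and the P4ha2 window 4, each start position on either strand counted once. Plod1 has 2, Loxl4 has 1 and P4ha3 has 0. Of 32851 promoters of the same length, 43.8% hold at least 1.

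Libraries held 12744241 to 14657630 counts, and no 2 libraries had identical counts. All 8 cardiomyocyte markers had counts in every group, with summed levels of 54381 to 113518 CPM (each count scaled to a common library size) over the 23 libraries. Overexpression could not be checked, since the miR-21 precursor has 0 rows in the table. Replicates 2 and 5 of the empty control and replicate 2 of the miR-21 swim group stood apart in adipocyte markers. Their mean log2 CPM over the 6 tested of 9 listed markers was 6.91, 6.73 and 6.65, against at most 4.22 in the other 20. Below, high in adipocyte markers refers to this mean. The summed level of all 9 overlapped between groups. It was 836 to 1259 CPM in the miR-21 swim and 958 to 1207 in the miR-21 control group. In the empty swim group it was 1051 to 1163, and in the empty control group 867 to 1415. Numbers in the sample titles fall in the 1300s for both groups without swimming and for replicates 1 and 2 of the miR-21 swim group, and in the 2000s for the 9 remaining libraries, among them the whole empty swim group. The labels do not say what this number stands for. In whole-heart RNA, fewer cells of a type and less RNA per cell cannot be told apart.

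Levels of different genes were compared per length, as FPKM. Plod1 had the highest mean FPKM of the 10 in each group, at 47.8 ± 5.42 in the miR-21 swim group (SD, n = 5), 47.9 ± 4.28 in the miR-21 control, 54.6 ± 2.92 in the empty swim and 53.9 ± 1.71 in the empty control group (SD, n = 6 each). It was the highest of the 10 in 21 of 23 libraries. Loxl1 was above it in the other 2, at 57.7 FPKM in replicate 2 of the miR-21 swim group and 59.8 FPKM in replicate 5 of the empty control. P4ha2 came next in all groups but the empty control, where Loxl1 came next with a range that overlapped that of P4ha2. In the miR-21 control group P4ha2 lay above the following enzyme, P4ha1, in 6 of 6 libraries. In both swimming groups it was followed by Loxl1 with an overlapping range, so that their order there was within the spread. P4ha2 stood at 25.2 ± 2.55, 28.5 ± 1.23, 26.8 ± 2.67 and 30.7 ± 1.01 FPKM in the miR-21 swim, miR-21 control, empty swim and empty control groups. P4ha1 followed at 12.1 to 22.9 FPKM as group means, and Plod2 at 9.08 to 12.5. At the low end, Loxl4 had group means of 0.435 to 0.813 FPKM and P4ha3 of 0.214 to 1.65, and in the empty control their order changed in 3 of 6 libraries.

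**Figure D1:**
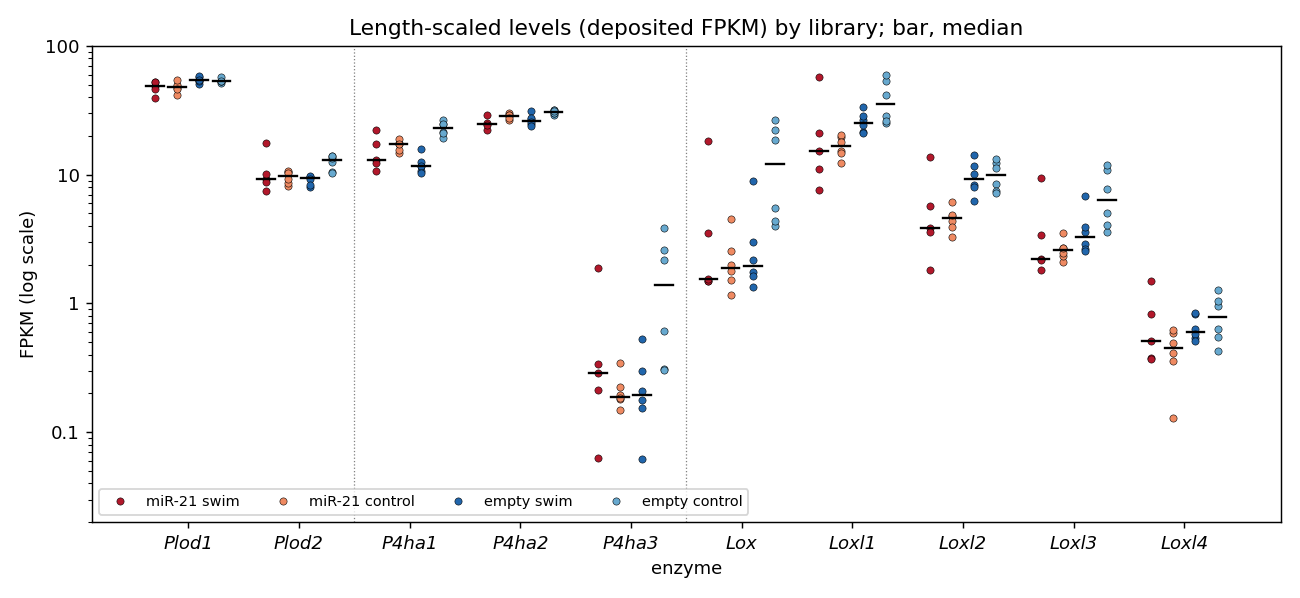
Deposited FPKM (log scale) of each enzyme, 1 point per library and 1 colour per group, with the group median as a bar; dotted lines separate lysyl hydroxylases, prolyl 4-hydroxylase subunits and lysyl oxidases. Plod1 lies between 39.4 and 58.7 FPKM in all groups, while Lox, Loxl4 and P4ha3 spread over more than a factor of 10.

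Loxl1 led the lysyl oxidases in all 23 libraries. It made up most of the lysyl oxidase FPKM, with 60.2 ± 3.66% in the miR-21 swim group (SD, n = 5), 62.8 ± 2.42% in the miR-21 control, 60.8 ± 4.70% in the empty swim and 56.7 ± 6.09% in the empty control group (SD, n = 6 each). Lox itself made up 10.8 ± 4.52%, 8.33 ± 3.73%, 6.53 ± 3.99% and 16.9 ± 7.91% in the same order. Among prolyl 4-hydroxylase subunits, P4ha2 had the larger share in 22 of 23 libraries. In replicate 2 of the miR-21 swim group P4ha1 held 48.0% and P4ha2 47.9%. P4ha1 held 30.9 ± 2.81% in the empty swim group and 41.4 ± 2.64% in the empty control group (SD, n = 6 each), and these ranges did not overlap, at 27.1 to 35.7% against 36.8 to 43.9%.

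With swimming under the empty vector, 3 of 10 enzymes fell and 0 rose. Of the 13501 genes tested, 7.46% changed in either direction, 3.28% fell and 4.18% rose. The 3 were P4ha1, P4ha3 and Plod2. The count was 6 without replicate 2 of the miR-21 swim group, a fit in which 14.2% of all genes tested were called, and 5 without replicate 4 of the empty swim group, with 6.67% called. Counts were tested with edgeR's quasi-likelihood test in 1 model of all 23 libraries, and adjusted p-values here are Benjamini-Hochberg values over all genes tested, called under 0.05. The median log2 fold change was -0.51 over the 10 enzymes and -0.00 over all genes tested. At an unadjusted p under 0.05 by edgeR there were 6, all lower, against 23.3% of genes tested in either direction. DESeq2 called 4 (Lox, P4ha1, P4ha3 and Plod2) and limma voom 4 (Lox, P4ha1, P4ha2 and Plod2), all lower.

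P4ha1, the main catalytic subunit in most tissues, fell to 49.7 ± 7.46 CPM in the empty swim group, against 93.5 ± 11.6 CPM in the empty control group (SD, n = 6 each). The lowest, median and highest libraries were at 44.0, 48.2 and 64.1 CPM in the empty swim group and at 75.3, 92.6 and 108 CPM in the empty control group. Every swimming library lay below every control library, as was so of 1.68% of the genes tested (2.9% had every swimming library above, and 4.58% either way). Swimming gave a log2 fold change of -0.91 ± 0.12 (SE), with an edgeR adjusted p of 9.72e-05. Once the title number series was added to the model, the value was -0.67 and the adjusted p 0.151. The whole empty swim group is in the 2000s and the whole empty control group in the 1300s. That term therefore rests on the miR-21 swim libraries, and series and swimming otherwise cannot be told apart. The term sets replicates 1 and 2 of the miR-21 swim group against replicates 3, 4 and 5, and replicate 2 is high in adipocyte markers. The share of replicate 2 in this term was not tested.

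With the miR-21 vector, P4ha1 had 55.7, 79.0, 45.5, 71.5 and 53.8 CPM in the miR-21 swim libraries, against a lowest, median and highest of 64.1, 73.5 and 81.1 CPM in the miR-21 control group. These groups overlapped, at a log2 fold change of -0.26 ± 0.12 (edgeR adjusted p = 0.264). The test of whether the swimming effect differed between vectors gave 0.66 ± 0.17 on the log2 scale (edgeR adjusted p = 0.0614), which did not pass. Between the control groups, P4ha1 averaged 73.1 ± 6.66 CPM with the miR-21 vector and 93.5 ± 11.6 CPM with the empty vector (SD, n = 6 each), a log2 fold change of -0.36 ± 0.12 (edgeR adjusted p = 0.0764). Among swimming mice it averaged 61.1 ± 13.7 CPM with the miR-21 vector (SD, n = 5) and 49.7 ± 7.46 CPM with the empty vector (SD, n = 6), at 0.30 ± 0.12 (edgeR adjusted p = 0.173). P4ha1 thus had values of opposite sign in the 2 comparisons of vectors, and neither passed edgeR's test. Without swimming it passed in 5 of 31 alternatives, DESeq2 and limma voom among them. After swimming it passed in 0 of 32. Whether miR-21 acts on P4ha1 was not tested.

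**Figure D2:**
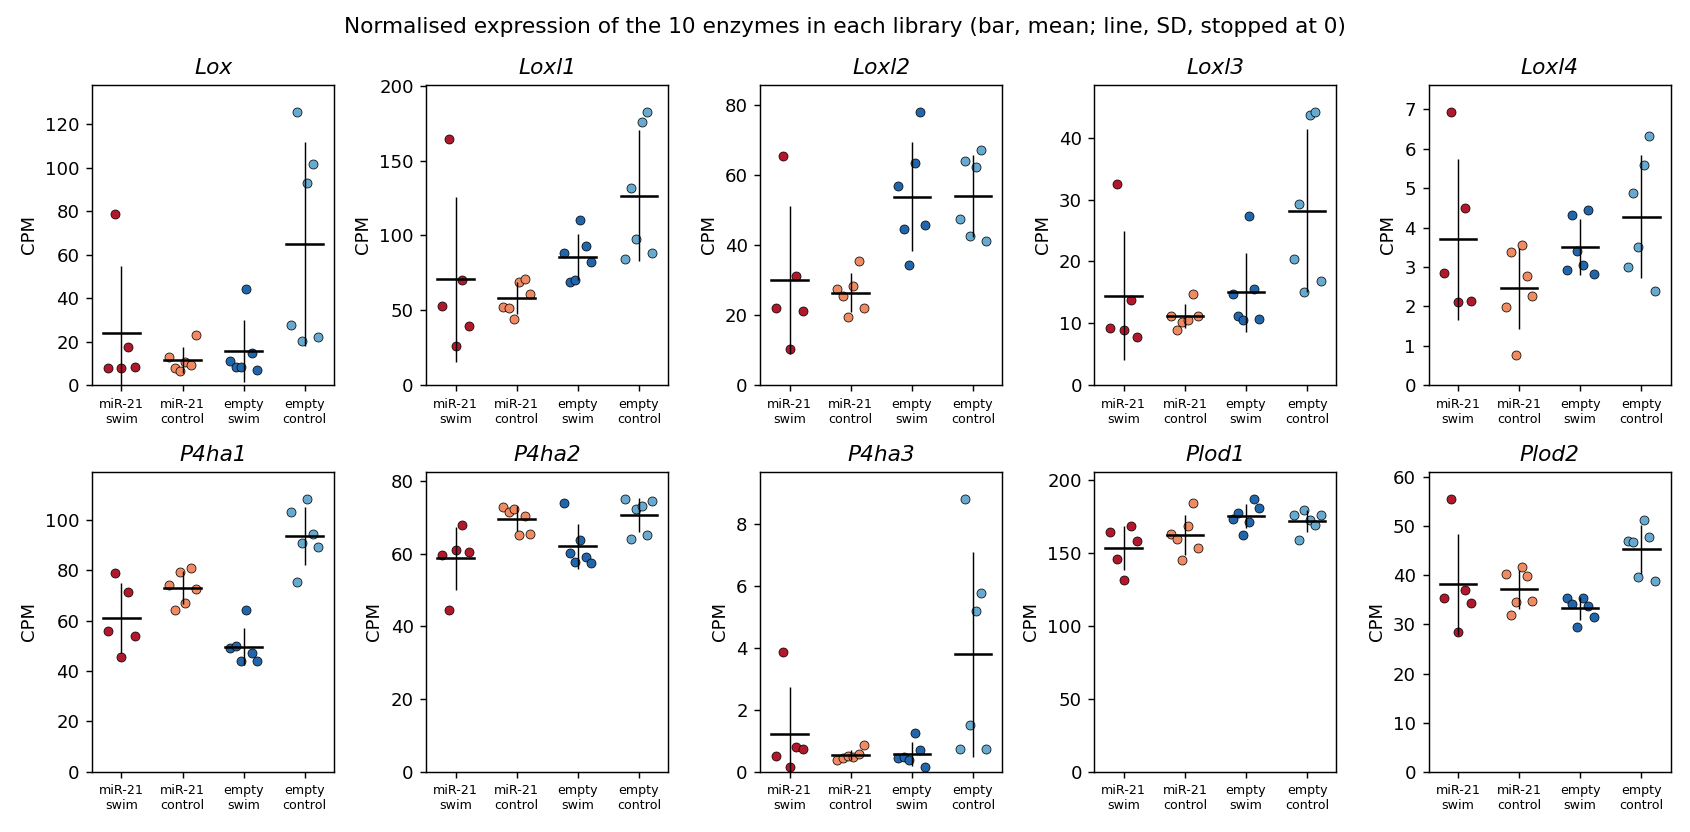
CPM of the 10 enzymes in every library, by group, with the group mean as a bar and its SD as a line, stopped at 0; all axes start at 0. P4ha1 is below every empty control library in all 6 empty swim libraries, and Lox and P4ha3 have 3 high libraries in the empty control group.

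P4ha2, the subunit most abundant in these hearts, varied little. Its 5 miR-21 swim libraries were at 59.7, 44.4, 60.9, 67.9 and 60.5 CPM, against 65.1, 71.0 and 72.7 CPM as the lowest, median and highest in the miR-21 control group. In the empty swim group the lowest, median and highest were 57.4, 59.6 and 73.8 CPM, against 64.2, 72.6 and 75.1 CPM in the empty control group. The swimming groups overlapped their controls under both vectors. Even so, 4 of 5 swimming libraries under the miR-21 vector and 5 of 6 under the empty vector lay below the lowest control library. Swimming gave log2 fold changes of -0.25 ± 0.08 under the miR-21 vector and -0.19 ± 0.08 under the empty vector (edgeR adjusted p = 0.148 and 0.152). Unadjusted edgeR p-values were 0.00726 and 0.0265, and P4ha2 was called lower under the miR-21 vector with the title series term. The miR-21 vector gave -0.02 ± 0.08 without swimming and -0.08 ± 0.08 after it (edgeR adjusted p = 0.873 and 0.637).

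P4ha3, a subunit of low abundance, rested on few reads: 2 to 66 counts a library in the miR-21 swim group, 5 to 12 in the miR-21 control, 2 to 18 in the empty swim and 10 to 132 in the empty control group. Under the empty vector it fell to 0.567 ± 0.381 CPM with swimming, against 3.79 ± 3.31 CPM without (SD, n = 6 each), a log2 fold change of -2.72 ± 0.66 (edgeR adjusted p = 0.0158). Without swimming it fell to 0.537 ± 0.168 CPM with the miR-21 vector, against the same 3.79 ± 3.31 CPM with the empty vector, at -2.80 ± 0.67 (edgeR adjusted p = 0.0408). Both comparisons share the empty control group, where 3 libraries were at 8.82, 5.18 and 5.77 CPM (replicates 2, 4 and 5) and the other 3 between 0.744 and 1.5. The highest library was at 1.25 CPM in the empty swim and 0.852 CPM in the miR-21 control group. In both comparisons 5 of 6 libraries lay below the lowest empty control library. Without the 3 libraries high in adipocyte markers, the log2 fold changes were -1.84 (adjusted p = 0.0203) for swimming and -1.92 (adjusted p = 0.0329) for miR-21, and with limma voom they were -1.48 and -1.54, with adjusted p-values of 0.0626 and 0.0554. With the title series term the swimming value was -0.76 (adjusted p = 0.810). In the miR-21 swim group, on which that term rests, replicate 2 was at 3.88 CPM and replicate 1 at 0.525.

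Plod1 is the helical lysyl hydroxylase. Over all groups its libraries lay between 131 and 187 CPM, and its group means were 154 ± 15.1 in the miR-21 swim group (SD, n = 5), 162 ± 13.5 in the miR-21 control, 175 ± 8.47 in the empty swim and 172 ± 7.33 in the empty control group (SD, n = 6 each). Its largest log2 fold change was -0.19 ± 0.07, for the miR-21 vector after swimming (edgeR adjusted p = 0.103).

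Plod2, the telopeptide lysyl hydroxylase, fell with swimming under the empty vector to 33.3 ± 2.41 CPM, against 45.3 ± 4.91 CPM in the empty control group (SD, n = 6 each). The lowest, median and highest libraries were 29.4, 34.0 and 35.5 CPM with swimming and 38.9, 46.9 and 51.4 CPM without, with no overlap. Its log2 fold change was -0.44 ± 0.12 (edgeR adjusted p = 0.0215); it did not pass without replicate 4 of the empty control or replicate 3 of the empty swim group, and was 0.01 (adjusted p = 0.985) with the title series term. Under the miR-21 vector the swimming libraries were at 35.4, 55.6, 28.5, 37.0 and 34.3 CPM, around a control group of 31.8, 37.4 and 41.8 CPM as lowest, median and highest. Its log2 fold change there was 0.04 ± 0.12 (edgeR adjusted p = 0.872). The title series term rests on these swimming libraries, of which replicate 2, at 55.6 CPM, was the highest. Between the control groups Plod2 differed by -0.28 ± 0.11 on the log2 scale, miR-21 over empty vector (edgeR adjusted p = 0.122).

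With the miR-21 vector without swimming, 2 of the 10 enzymes fell and 0 rose. Of the genes tested, 2.25% changed, 1.37% fell and 0.881% rose. The enzymes were P4ha3, given above, and Loxl3. At an unadjusted p under 0.05 by edgeR there were 8, all lower, against 28.4% of genes tested in either direction, and DESeq2 called 6 and limma voom 5. The edgeR count was 0 without replicate 2, 4 or 5 of the empty control, without replicate 1 or 5 of the empty swim group, or without any 1 of the miR-21 control libraries, and 8 without replicate 2 of the miR-21 swim group. Without that last library 21.3% of all genes tested were called in this comparison. All 10 log2 fold changes were negative, with a median of -0.92 against -0.00 over all genes tested. Groups did not overlap for Loxl1, Loxl2 and Loxl3, lower with miR-21 in each, as was so of 2.41% of the genes tested (3.03% were higher without overlap, and 5.44% either way).

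Loxl3, one of the lysyl oxidase relatives, fell to 11.1 ± 1.93 CPM in the miR-21 control group, against 28.2 ± 13.1 CPM in the empty control group (SD, n = 6 each). Lowest, median and highest were 8.98, 10.8 and 14.7 CPM with miR-21 and 15.0, 24.8 and 44.1 CPM with the empty vector. It differed by -1.34 ± 0.35 on the log2 scale (edgeR adjusted p = 0.0490), close to the threshold: it passed in 14 of 31 alternatives. Under the empty vector with swimming it averaged 15.0 ± 6.42 CPM (SD, n = 6), a log2 fold change from the empty control of -0.91 ± 0.35 (edgeR adjusted p = 0.112).

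Loxl1, which crosslinks mainly elastin, averaged 58.0 ± 10.6 CPM in the miR-21 control group and 127 ± 43.9 CPM in the empty control group (SD, n = 6 each). The highest miR-21 library, at 71.0 CPM, was below the lowest empty vector library, at 84.4 CPM. The log2 fold change of -1.13 ± 0.32 did not pass (edgeR adjusted p = 0.0590). For swimming under the empty vector Loxl1 was at -0.57 ± 0.32 (edgeR adjusted p = 0.294). Loxl2, known for collagen IV crosslinking and fibroblast activation, averaged 26.4 ± 5.53 CPM with miR-21 and 54.2 ± 11.7 CPM with the empty vector (SD, n = 6 each). Its values ran from 19.5 to 35.4 CPM with miR-21 and from 41.2 to 67.2 CPM with the empty vector. Loxl2 differed by -1.04 ± 0.30 on the log2 scale (edgeR adjusted p = 0.0597).

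Loxl2 stood at about the same level in both empty vector groups, 53.8 ± 15.6 CPM with swimming and 54.2 ± 11.7 CPM without (SD, n = 6 each), with a log2 fold change of -0.01 ± 0.29 (edgeR adjusted p = 0.989). After swimming it was at 22.1, 65.5, 10.4, 31.3 and 21.1 CPM with the miR-21 vector, against a lowest, median and highest of 34.4, 51.3 and 78.0 CPM with the empty vector. Replicate 2, high in adipocyte markers, was the 1 miR-21 library inside the empty vector range. The log2 fold change was -0.83 ± 0.32 (edgeR adjusted p = 0.139), and -1.33 (adjusted p = 0.00275) without that library. Within the libraries numbered in the 2000s it was -1.35 (adjusted p = 0.0630). Loxl1 after swimming was at -0.27 ± 0.33 (edgeR adjusted p = 0.699) with all libraries and -0.85 (adjusted p = 0.0386) without replicate 2.

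Lox, the founding member of the family, had the widest spread of the lysyl oxidases. It was at 7.65, 78.8, 7.65, 17.4 and 8.15 CPM in the miR-21 swim libraries. Lowest, median and highest were 6.24, 9.84 and 22.9 CPM in the miR-21 control group, 6.88, 9.66 and 44.1 CPM in the empty swim group and 20.4, 60.2 and 126 CPM in the empty control group. The empty control held 3 libraries at 92.8 to 126 CPM (replicates 2, 4 and 5) and 3 at 20.4 to 27.6, so that a mean of 65.1 ± 46.9 CPM (SD, n = 6) describes none of them. The log2 fold change was -2.48 ± 0.67 for miR-21 without swimming (edgeR adjusted p = 0.0518). For swimming under the empty vector it was -2.07 ± 0.66 (edgeR adjusted p = 0.0597). Neither was past the threshold by edgeR, while DESeq2 and limma voom called Lox lower in both comparisons. It passed in 11 of 31 alternatives for miR-21 without swimming and in 6 of 31 for swimming under the empty vector. With the title series term the swimming value was -0.10 (adjusted p = 0.977). That term rests on the miR-21 swim libraries, where replicate 2 was at 78.8 CPM and replicate 1 at 7.65. Loxl4, the least abundant relative, had 9 to 118 counts a library. It averaged 2.45 ± 1.03 CPM in the miR-21 control group and 4.28 ± 1.56 CPM in the empty control group (SD, n = 6 each), with a log2 fold change of -0.80 ± 0.32 (edgeR adjusted p = 0.122). For swimming under the empty vector Loxl4 was at -0.29 ± 0.32 (edgeR adjusted p = 0.616).

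The 3 empty control libraries with high Lox and P4ha3 were also the highest of their group in cartilage markers and activated fibroblast markers. The summed level of the 8 cartilage markers was 11.0 to 200 CPM in the miR-21 swim group, 7.12 to 34.5 in the miR-21 control, 5.43 to 37.6 in the empty swim and 38.8 to 326 in the empty control group. That of the 10 activated fibroblast markers was 195 to 1168, 283 to 481, 486 to 994 and 599 to 1461 CPM in the same order, and that of 8 macrophage markers 341 to 2223, 335 to 985, 410 to 810 and 485 to 2354. None of these markers was at 0 in every library, though 1 of the 8 cartilage markers was at 0 throughout the empty swim group. The part of these cell types in the enzyme differences was not tested.

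For the miR-21 vector after swimming, 0 of the 10 enzymes passed edgeR's test, against 4.58% of genes tested (1.87% higher, 2.71% lower). At an unadjusted p under 0.05 there were 3 (1 higher, 2 lower), against 19.8% of genes tested. DESeq2 called 0 and limma voom called 3, which were Loxl1, Loxl2 and Plod1, all lower. For swimming under the miR-21 vector, 0 of 10 passed against 0.17% of genes tested (0.0518% higher, 0.119% lower), with 2 at an unadjusted p under 0.05 by edgeR, against 18.8% of genes tested, and 0 called by DESeq2 or limma voom. Groups without overlap were found for 0 enzymes in both comparisons. For the miR-21 vector after swimming, 3.25% of all genes tested had them (1.36% higher, 1.9% lower), and for swimming under the miR-21 vector 2.76% (1.81% lower). For the difference between vectors in the effect of swimming, 0 of 10 passed edgeR's test against 0.541% of genes tested (0.326% positive, 0.215% negative), with 5 at an unadjusted p under 0.05, against 21.5% of genes tested. DESeq2 called 3 (Lox, P4ha1 and P4ha3) and limma voom 1 (P4ha1), all with a positive sign. Of the 10 interaction values 8 were positive, with the largest for P4ha3, at 3.93 ± 0.97 (edgeR adjusted p = 0.0565), and Lox, at 3.12 ± 0.95 (edgeR adjusted p = 0.0911). Without replicate 2 of the miR-21 swim group they were 2.77 (adjusted p = 0.158) and 1.87 (adjusted p = 0.299), and with limma voom 1.70 and 1.19.

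**Figure D3:**
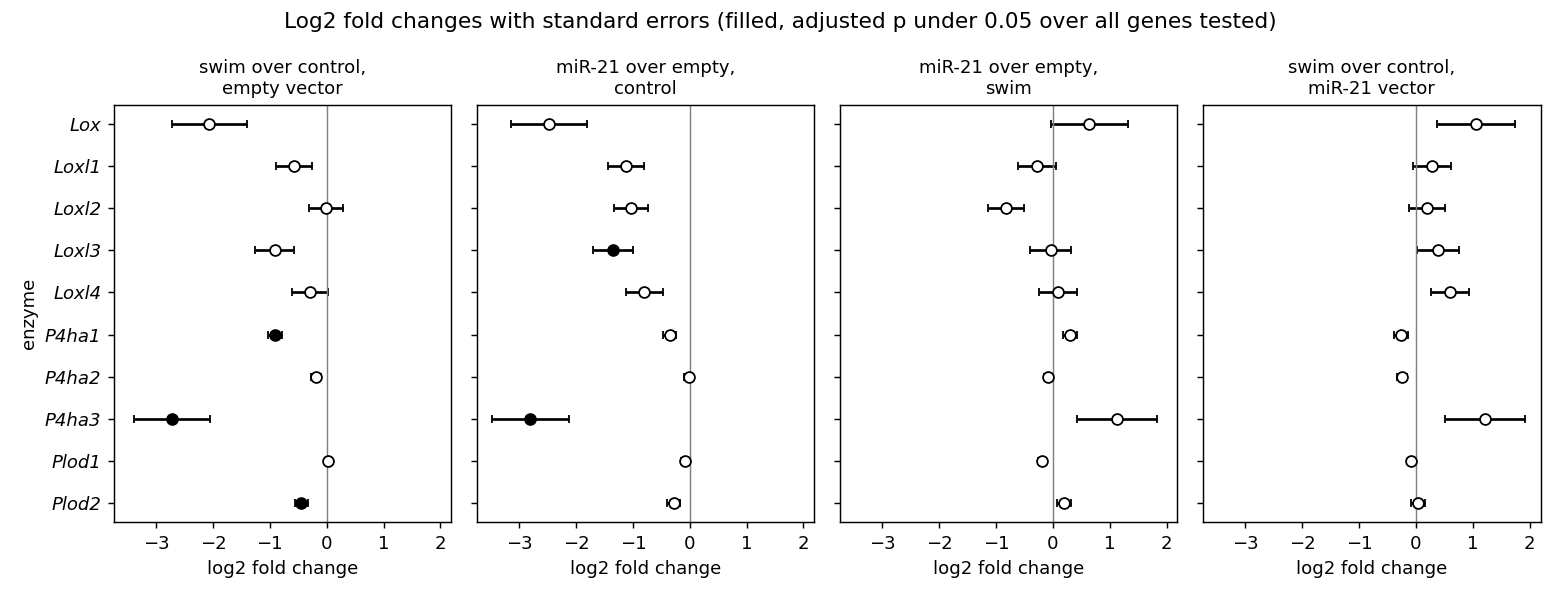
Log2 fold changes of the 10 enzymes with their standard errors in the 4 comparisons of groups; filled points have an edgeR adjusted p under 0.05 over all genes tested. Filled points are P4ha1, P4ha3 and Plod2 for swimming under the empty vector and Loxl3 and P4ha3 for the miR-21 vector without swimming, all left of 0.

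In the authors' deposited table for swimming under the empty vector, the log2 fold change was -0.92 for P4ha1 (adjusted p = 6.35e-12), -0.45 for Plod2 (adjusted p = 0.00266) and -2.75 for P4ha3 (adjusted p = 0.0941), so that 2 of 10 had an adjusted p under 0.05. The authors' deposited table for the miR-21 vector without swimming has 5 of 10 under 0.05: Lox, Loxl1, Loxl2, Loxl3 and P4ha1. Its values were -1.04 for Loxl2 (adjusted p = 3.76e-05) and -0.35 for P4ha1 (adjusted p = 0.00950). In the authors' deposited tables for the other 2 comparisons 0 of 10 were under 0.05. The sign was the same as in the edgeR fit for all 10 enzymes in each of the 4 tables.

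Across libraries the enzymes did not all vary together. After group means were subtracted from log2 CPM, Pearson's r over 23 libraries between the 5 lysyl oxidases ran from 0.58 to 0.91, with a median of 0.76 over 10 pairs. Loxl1 and Loxl2 had r = 0.91, Lox and Loxl3 0.91, Lox and P4ha3 0.89, and Loxl2 and Plod2 0.88. P4ha2 ran against most others, with a negative r in 8 of its 9 pairs and a median of -0.45. Without the 3 libraries high in adipocyte markers, only 1 of those 9 was negative and the median was 0.15, so the opposition of P4ha2 rested on those libraries. The lysyl oxidase pairs had a median of 0.61 over the remaining 20. All these genes share library and depth, and the values are descriptions.

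**Figure D4:**
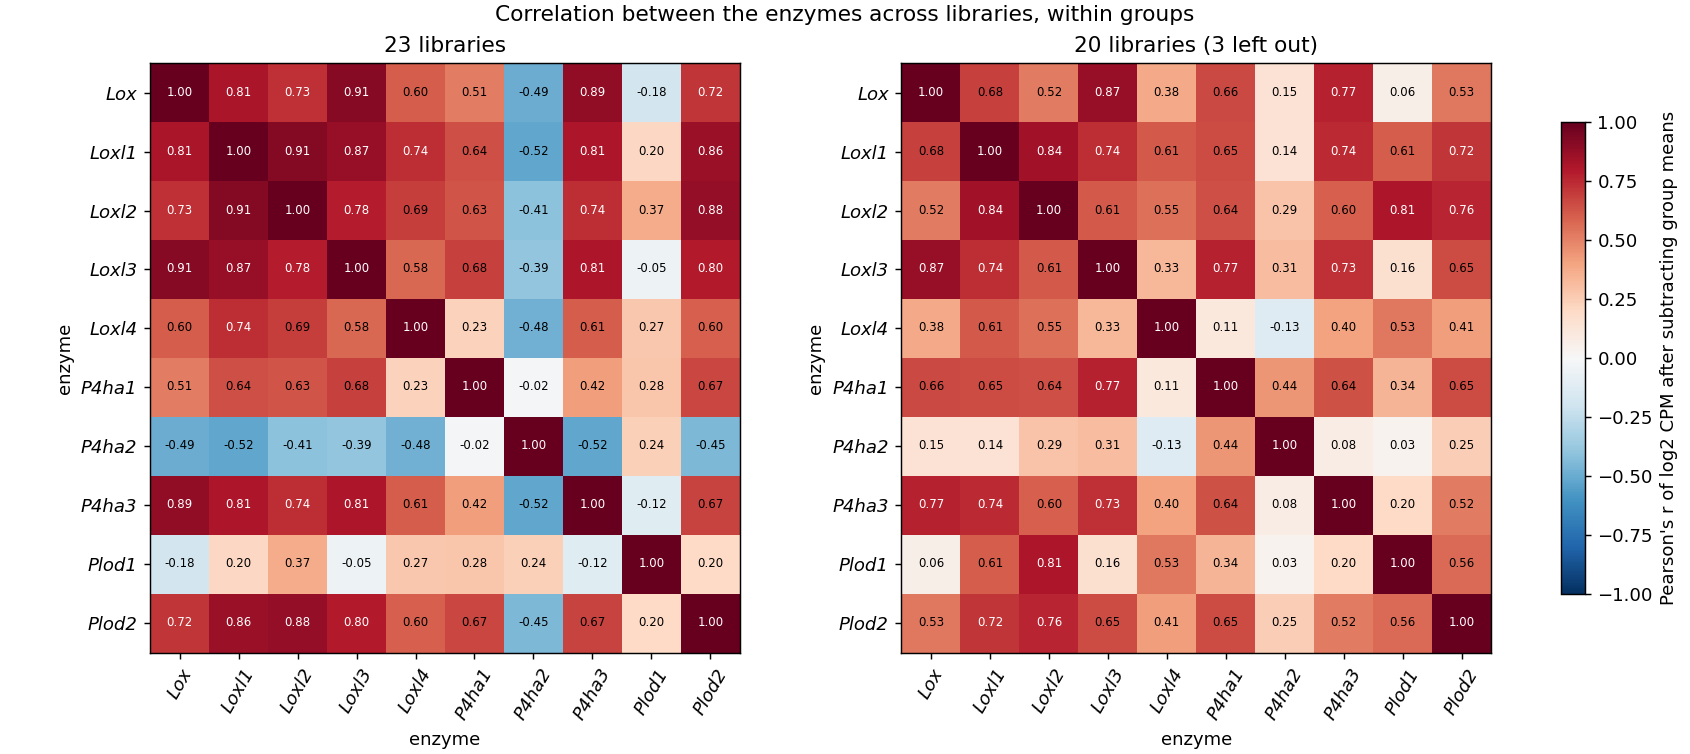
Pearson's r of log2 CPM between the enzymes after subtracting group means, over all 23 libraries on the left and over the 20 left after the 3 libraries high in adipocyte markers were removed on the right. The blue row of P4ha2 on the left is mostly absent on the right, and the lysyl oxidases are red in both.

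For each enzyme the tested gene with the most similar profile over the 23 libraries was found, by Pearson's r of log2 CPM. The other enzymes, and genes with only a Gm, LOC or Rik name, were left out of this search. Group means were not subtracted here, so these values include differences between groups. For Lox it was Ctsk, the collagen-degrading protease cathepsin K (r = 0.95), for Loxl1 the matrix protein Sparc (0.97), for Loxl2 the fibrillar collagen chain Col5a1 (0.97), for Loxl3 the microfibril protein Mfap4 (0.97) and for Loxl4 the chromobox gene Cbx6 (0.89). Next to these, Loxl2 was followed by Fbn1 (0.97) and Col6a2 (0.97), and Lox by Sfrp1 (0.95) and Sfrp2 (0.95), secreted modulators of Wnt signalling. P4ha3 was closest to the proteoglycan Sdc1 (0.94, and 0.65 by Spearman's rank correlation), also followed by Sfrp2 (0.93) and Sfrp1 (0.93). P4ha1 was closest to genes that are not matrix genes, the TWEAK receptor Tnfrsf12a (0.92), Synpo (0.90) and the heat shock protein Hsp90aa1 (0.89). With group means subtracted, these 3 values were 0.77, 0.60 and 0.76. P4ha2 was closest to the mitochondrial import receptor Tomm70a (0.88), Plod1 to Papln (0.87) and Plod2 to the complement component C7 (0.90).

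Fibrillar collagen, the substrate, was taken as the sum of Col1a1, Col1a2 and Col3a1. It was at 1181 ± 1312 CPM in the miR-21 swim group (SD, n = 5), 753 ± 269 in the miR-21 control, 1334 ± 520 in the empty swim and 2940 ± 2160 in the empty control group (SD, n = 6 each). Lox followed it across libraries, with r = 0.94 against Col1a1 after subtracting group means. Per 1000 CPM of this sum, Lox was at 19.2 ± 5.51 CPM in the miR-21 swim group (SD, n = 5), 15.1 ± 2.77 in the miR-21 control, 10.6 ± 5.02 in the empty swim and 21.7 ± 3.95 in the empty control group (SD, n = 6 each). P4ha1 per 1000 CPM was at 92.3 ± 52.3, 107 ± 37.4, 40.8 ± 12.6 and 51.0 ± 33.2 CPM in the same order. In the empty control group the P4ha1 ratio was 68.1 to 89.6 in the 3 libraries with a collagen sum of 1103 to 1310 CPM and 11.7 to 31.7 in the 3 with a sum of 3413 to 6434 CPM, so that its mean mixes these. In the empty swim group it was 29.2 to 63.6, at collagen sums of 692 to 2196 CPM. Loxl2 per 1000 CPM ran from 28.95 to 49.7 CPM in the empty swim group and from 9.96 to 41.3 CPM in the empty control group (n = 6 each).

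**Figure D5:**
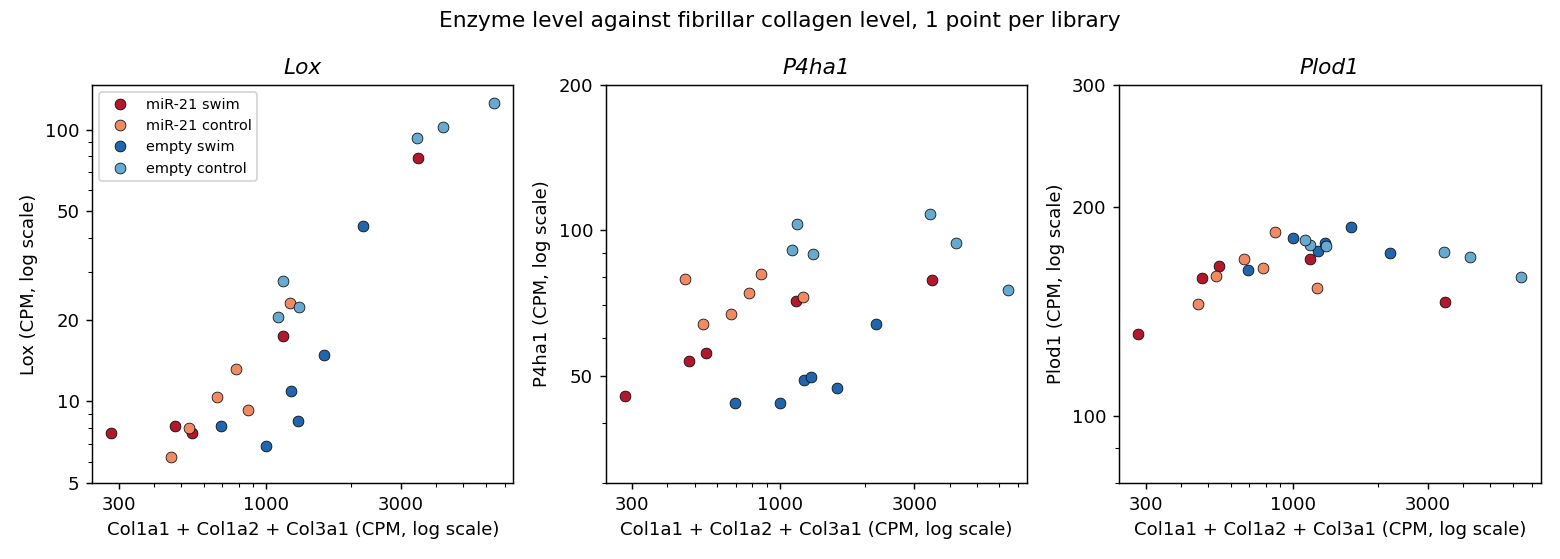
CPM of Lox, P4ha1 and Plod1 against the summed CPM of Col1a1, Col1a2 and Col3a1, both on log scales, 1 point per library and 1 colour per group. Lox is higher where collagen is higher, P4ha1 lies lower in the empty swim libraries than in the empty control libraries of like collagen level, and Plod1 stays between 131 and 187 CPM.

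Other genes of collagen maturation were taken from lists of the same pathway. With swimming under the empty vector, 3 of 19 other modifying enzymes and chaperones fell and 1 rose by edgeR, against the 7.46% of all genes. P3h2, a prolyl 3-hydroxylase, fell to 3.57 ± 0.478 CPM in the empty swim group, against 8.45 ± 1.97 CPM in the empty control group (SD, n = 6 each), with a log2 fold change of -1.24 ± 0.25 (edgeR adjusted p = 0.00403). The transglutaminase Tgm2, which makes a different protein crosslink, fell by 0.38 on the log2 scale (edgeR adjusted p = 0.0128), and Plod3, the remaining lysyl hydroxylase, fell by 0.30 (edgeR adjusted p = 0.0288). P3h4, named here after its value was seen, rose by 0.42 (edgeR adjusted p = 0.0432). Of 9 tested collagen and elastin substrates 1 fell, Col11a1. Of 20 hypoxia-inducible and glycolytic genes 4 fell and 0 rose. They were the mitophagy receptor Bnip3, at -0.56 ± 0.10 (edgeR adjusted p = 0.00254), the oxygen sensor Egln3, at -0.66 ± 0.15 (0.0122), the glycolytic enzyme Eno1, at -0.29 ± 0.07 (0.0202), and Car9, at -2.20 ± 0.63 (0.0363), the last named after its value was seen. The list's median log2 fold change was -0.11. Of 10 genes of the TGF-beta response 1 fell, Tgfb2, and 1 rose, Ltbp1.

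With the miR-21 vector without swimming, 2 of the 19 modifying enzymes and chaperones fell and 0 rose by edgeR, against 2.25% of all genes. DESeq2 called 7 lower and 1 higher, and limma voom 8 lower and 2 higher. The collagen chaperone Serpinh1 fell to 334 ± 34.1 CPM in the miR-21 control group, against 440 ± 60.5 CPM in the empty control group (SD, n = 6 each), a log2 fold change of -0.40 ± 0.11 (edgeR adjusted p = 0.0496). Plod3 fell by 0.33 (edgeR adjusted p = 0.0420). Of the 9 tested substrates DESeq2 called 8 lower and limma voom 7. By edgeR 3 fell, elastin (Eln) by 1.79, Col5a3 by 0.92 and Col11a1 by 3.64 on the log2 scale (edgeR adjusted p = 0.0394, 0.0399 and 0.0436). The procollagen protease gene Tll2 rose by 1.21 (edgeR adjusted p = 0.0419), as it did with swimming under the empty vector, by 1.01 (edgeR adjusted p = 0.0396), the 2 comparisons sharing the empty control group.

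With the miR-21 vector after swimming, 3 of the 19 fell and 0 rose by edgeR, against 4.58% of all genes, while DESeq2 called 5 lower and 2 higher and limma voom 7 lower and 1 higher. Those called by edgeR were Fkbp10 by 0.49, Fkbp14 by 0.43 and Colgalt2 by 0.41 on the log2 scale (edgeR adjusted p = 0.0284, 0.0303 and 0.0414). Fkbp10 is a chaperone needed for telopeptide lysine hydroxylation, the step that Plod2 carries out. It was at 35.7 ± 6.36 CPM in the miR-21 swim group (SD, n = 5) and 50.1 ± 5.98 CPM in the empty swim group (SD, n = 6). Of the 9 tested substrates edgeR and DESeq2 called 1 lower and limma voom 7. By edgeR it was Col5a3, which fell to 24.7 ± 8.12 CPM in the miR-21 swim group (SD, n = 5), against 57.7 ± 17.9 CPM in the empty swim group (SD, n = 6). Of the 20 hypoxia-inducible and glycolytic genes 1 rose by edgeR, the glucose transporter Slc2a1, by 0.27 (edgeR adjusted p = 0.0356), and 0 fell. DESeq2 called 1 higher and 1 lower, and limma voom 6 higher and 1 lower. For swimming under the miR-21 vector 0 of the 19 modifying enzymes and chaperones passed edgeR's test, with 3 higher and 2 lower at an unadjusted p under 0.05, 0 called by DESeq2 and 1 by limma voom. For the difference between vectors in the effect of swimming 0 of the 19 passed edgeR's test, with 5 higher and 2 lower at an unadjusted p under 0.05, 3 called by DESeq2 and 2 by limma voom.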

How the data were processed

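Gene counts came from the authors' deposited table of whole-number counts per gene and library, and FPKM values from their deposited table of the same libraries. Per the labels' protocols, TRIzol was used for extraction and a TruSeq Stranded mRNA kit for the libraries. The genome build was GRCm39, per the submitters' processing notes, with aligner and counter not given in the sources used here. The log2 fold changes and the p-values (with adjusted p-values) in the authors' 4 deposited comparison tables are the authors' own, from an unnamed tool. The 46 per-sample columns of those tables were not used. Replicate 6 of the miR-21 swim group was not analysed here.

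All 23 libraries entered 1 edgeR 4.0.16 quasi-likelihood model (R 4.3.3, filterByExpr, TMM scaling, robust dispersion) with a mean per group. Of 21878 genes 13501 were tested, all 10 enzymes among them. The 4 comparisons of groups and the interaction were tested as contrasts. The standard error is the log2 fold change over the square root of F. CPM values are TMM-scaled, and log2 CPM has a prior count of 2. The model was also run on simulated data in which all genes had the same dispersion. These data differ from that, so the run does not bear on the calls given here. Depth was 12744241 to 14657630 counts, so that genes such as P4ha3 rest on few reads. The labels do not tie libraries to separate mice, and p-values therefore cover the spread between samples only. Groups came from the labels, and replicate numbers from accession order. The members and all lists were chosen with earlier results of these data known. The figure of log2 fold changes shows all 10 enzymes in the 4 comparisons of groups, while the text gives values for only a part of them in each. From the lists described, changed genes of smallest p are named (at most 3, apart from those marked as named after their value was seen). The genes most similar in profile to each enzyme are also named. Alternatives were RLE scaling, no filter, a mean of at least 1 CPM, DESeq2 1.42.0, limma voom 3.58.1 with quality weights, only the 2 groups compared, a title number series term, leaving out 3 libraries high in adipocyte markers, and leaving out each library. Fits within 1 title series were added after seeing the data. Sequences are RefSeq's (GRCm38.p6) and GENCODE vM21's (3′ regions, the longest per gene). No coordinates of the counts' build are printed. Figures were drawn with matplotlib 3.10.9.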

Additional observations from a re-analysis of the deposited data

Results flagged for a closer look

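In each of 40 sets of values, 1 enzyme in 1 group, the most extreme library was compared with the others by the size of its gap. Replicate 4 of the empty swim group had the highest P4ha1 level of its group, 64.1 CPM, and lay far from the next library, at 49.7 CPM, with a gap of 0.672 of the range on the log2 scale. It was the 1 such case, and chance gives about 5% of sets. The same library had the highest Lox of its group, at 44.1 CPM, the highest Loxl3, at 27.3 CPM, and the highest fibrillar collagen sum, at 2196 CPM. Without it, P4ha1, P4ha3, Plod2, Lox and Loxl3 were called lower for swimming under the empty vector, 5 enzymes in place of 3, while 6.67% of all genes tested were called in that fit, against 7.46% with it.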

How the results depend on the processing

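No paired analysis was possible because the labels give no replicate numbers shared between groups. Of the 10 enzymes, 3 changed with swimming under the empty vector. The 3 became 0 with the title number series term, which rests on the miR-21 swim libraries. DESeq2 and limma voom each gave 4, as did leaving out the 3 libraries high in adipocyte markers. The count ranged from 2 to 6 when single libraries were left out. For the miR-21 vector without swimming the 2 became 1 with no filter, 6 with DESeq2, 5 with limma voom, 7 with only the 2 groups, 5 with the title term and 4 without the 3 libraries high in adipocyte markers, and 0 to 8 without single libraries. For the miR-21 vector after swimming the 0 became 3 with limma voom, 1 with the title term and 2 without the 3 libraries, and 0 to 2 without single libraries. For swimming under the miR-21 vector the 0 became 1 with the title term, and stayed between 0 and 0 without single libraries. For the interaction the 0 became 3 with DESeq2 and 1 with limma voom, and 0 to 2 without single libraries. The cause was not tested.

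Signs turned for some values, among them Plod2 with swimming under the empty vector, which was called lower at -0.44. For swimming under the empty vector, Loxl2 was 0.00102 with no filter, 0.22 with limma voom, 1.06 with the title term and 0.15 without the 3 libraries. Loxl4 was 0.057 with limma voom and 0.46 with the title term, which also gave 0.70 for Loxl1, 0.13 for Loxl3 and 0.010 for Plod2, and Plod1 was -0.0050 without the 3 libraries. For the miR-21 vector after swimming, the edgeR fit of all 23 libraries gave 0.64 for Lox and 0.09 for Loxl4 (adjusted p = 0.644 and 0.911). It gave -0.08 for P4ha2 and 1.13 for P4ha3 (adjusted p = 0.637 and 0.383). In the same comparison, limma voom, the title term, leaving out the 3 libraries and the 2000s alone gave -0.38, -0.49, -0.60 and -0.47 for Lox and -0.28, -0.26, -0.27 and -0.25 for Loxl4. P4ha2 was 0.025, 0.010 and 0.039 with the last 3 of these, and P4ha3 -0.0038 with the title term and -0.029 without the 3 libraries. For swimming under the miR-21 vector, the edgeR fit of all 23 libraries gave 1.05 for Lox (adjusted p = 0.400), 0.29 for Loxl1 (0.644) and 0.20 for Loxl2 (0.746). It gave 0.39 for Loxl3 (0.560) and 0.04 for Plod2 (0.872). There, limma voom and leaving out the 3 libraries gave -0.16 and -0.19 for Lox, -0.24 and -0.30 for Loxl1, -0.30 and -0.31 for Loxl2, -0.15 and -0.16 for Loxl3, and -0.11 and -0.13 for Plod2. For the interaction, the edgeR fit of all 23 libraries gave 0.21 for Loxl2 and -0.06 for P4ha2 (adjusted p = 0.810 and 0.802). There, limma voom, the title term and leaving out the 3 libraries gave -0.52, -0.32 and -0.46 for Loxl2 and 0.029, 0.047 and 0.092 for P4ha2.

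Leaving out single libraries gave -0.14 to 0.084 for Loxl2 and -0.000138 to 0.044 for Plod1 with swimming under the empty vector. After swimming, the miR-21 vector gave -0.59 to 1.3 for Lox, -0.59 to 0.22 for Loxl3, -0.26 to 0.24 for Loxl4, -0.14 to 0.016 for P4ha2 and -0.023 to 1.52 for P4ha3. Swimming under the miR-21 vector gave -0.19 to 1.38 for Lox, -0.30 to 0.50 for Loxl1, -0.31 to 0.42 for Loxl2, -0.16 to 0.54 for Loxl3 and -0.13 to 0.13 for Plod2, and the interaction -0.30 to 0.42 for Loxl2 and -0.11 to 0.030 for P4ha2. The title term or a library left out could thus turn several lysyl oxidases, while P4ha1 with swimming under the empty vector was negative in each alternative run. Among all genes, 1007 changed with swimming under the empty vector, with 164 to 1716 over the other alternatives and 607 to 1922 without single libraries. For the miR-21 vector without swimming 304 changed, with 150 to 1622 and 17 to 2885. After swimming it was 618, with 165 to 2715 and 330 to 1871. For swimming under the miR-21 vector it was 23, with 0 to 1076 and 0 to 86, and for the interaction 73, with 25 to 719 and 18 to 358. P4ha3 rested on as few as 2 counts a library, which limits its precision.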
